A study of Homo sapiens with 6 samples.

Results

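The enzymes examined here are those of foreign-compound (xenobiotic) metabolism, namely all genes with CYP, UGT, GST or SULT symbols in the table, leaving out the sterol synthesis gene CYP51A1. They were 104 of the 20811 genes measured, with 54 CYP, 21 UGT, 17 GST and 12 SULT genes. Members were taken by symbol and not by a filter on measured values, although these families were chosen with earlier results of these data known. RNA was read from HuCCT1, a human intrahepatic cholangiocarcinoma cell line, in 3 libraries of HuCCT1/CD90+ cells, transduced with the human THY1-CMV-GFP lentivirus, and 3 libraries of HuCCT1/CD90− cells, which carried the Lenti-CMV-GFP-2A-Puro-Blank virus instead. THY1 encodes CD90. Both lines therefore carry a vector with a CMV promoter and GFP and were grown in the same serum-containing RPMI medium, and the sources used here do not say whether either line came from 1 clone, so CD90 and the history of each transduced line cannot be told apart. Values are RPM, reads on a gene's amplicon scaled to 1000000 reads on genes.

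Cells handle foreign compounds in steps. Cytochromes P450 (CYP) oxidise them with electrons from the reductase POR, and the products are joined to glucuronic acid by UDP-glucuronosyltransferases (UGT), to glutathione by glutathione S-transferases (GST) or to sulfate by sulfotransferases (SULT). Hepatocytes are the main site of this chemistry, and bile duct cells hold a smaller set of these enzymes. Many CYP genes also act on the body's own compounds, such as bile acids, steroids, vitamin D, retinoic acid and fatty acids.

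The libraries held 8587634 to 10551516 reads on genes. THY1 had 0, 1 and 0 reads in HuCCT1/CD90− and 46.6, 51.8 and 73.8 RPM in HuCCT1/CD90+, as the labels imply. The 7 bile duct markers summed to 8210 to 9314 RPM without CD90 and to 10974 to 11722 RPM with it, with 3 of 7 called higher. The 7 hepatocyte markers summed to 3.98 to 6.21 and 0.326 to 0.751 RPM, with 2 called lower, or 1 with the replicate number as a block in the fit. TTR had no reads and ALB at most 1 read in any library. The 6 fibroblast markers summed to 41.8 to 64.9 and 20.3 to 24.7 RPM, with 5 called lower. The 6 leukocyte markers summed to 164 to 177 and 89.0 to 107 RPM, with 3 called lower (CD14, LYZ and HLA-DRA). Among them CD68 was called higher, with means of 50.8 and 92.2 RPM, and PTPRC had at most 1 read. Of all genes, 7.59% were called higher and 7.49% lower. With the replicate number as a block in the fit, 2 fibroblast and 2 leukocyte markers stayed lower and CD68 stayed higher. These lists differed between the lines together with the enzymes, and their part in the results below was not tested. In bulk RNA, fewer cells that express a gene and less of its RNA per cell cannot be told apart. The labels call the libraries replicates without naming separate cultures, so p-values measure the spread between these libraries, which may be technical.

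A short set of enzymes was read in these cells, and that set changed in both directions. Of the 104 genes, 37 had no reads in any library and 22 more had at most 3 reads in every library, which leaves 45 above that floor in at least 1 library and 29 that averaged 1 RPM or more over the 6 libraries. A gene was called where limma on log2(RPM + 1) gave an adjusted p up to 0.05 across the whole table together with a 1.5-fold difference or more on that scale. By this rule 9 genes were higher and 10 lower in HuCCT1/CD90+. This is 18.3% of the enzyme genes, against 15.1% of all 20811 genes (7.59% higher and 7.49% lower). The 2 shares lay near each other, but both count genes at or under the floor, 59 of the 104 and 6713 of the 20811. They do not compare the genes that were read, and a share among read genes was not computed for the table. The median log2 fold change was 0.00 over the enzyme genes and 0.00 over all genes, and since 59 of the enzyme genes were at or under the floor, theirs says little about the genes that were read. Where the replicate number was a block in the fit, 2 of the 104 were higher and 6 lower. In that fit 2102 of all 20811 genes (10.1%) were called in either direction, so the share of the enzyme genes lay under that of the table. With the p left unadjusted and the same fold, 9 were higher and 14 lower, against 20.1% of all genes (10.1% and 9.98%), and the genes added were CYP27B1, CYP39A1, CYP4X1 and UGT8. With an offset of 5 RPM in place of 1, 4 were higher and 7 lower. Among called genes that averaged 1 RPM or more, those no longer called were CYP2R1, CYP2U1, CYP3A5, GSTM4 and SULT2B1. Leaving out 1 library gave 4 to 8 higher and 3 to 12 lower genes. The higher count fell furthest without HuCCT1/CD90− replicate 3 (4) and to 5 without HuCCT1/CD90− replicate 1 or 2, and the lower count was 3 without HuCCT1/CD90− replicate 3, 4 without HuCCT1/CD90+ replicate 1, 5 without HuCCT1/CD90+ replicate 3 and 6 without HuCCT1/CD90− replicate 2 or HuCCT1/CD90+ replicate 2.

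The families differed in how much was read. UGT genes were the least often detected, with 12 of 21 without reads, among them 9 of the 10 UGT2 genes, and 3 of 21 called, all lower. Of the 17 GST genes, 1 was called, GSTM4. CYP genes gave 13 of the 19 calls, 7 higher and 6 lower, and SULT genes 1 in each direction. A value of 0 means only that the amplicon gave no reads, since CYB5R3, which is used by most cells, was itself listed at 0 in 5 of the libraries and had 1 read in the other.

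**Figure D1:**
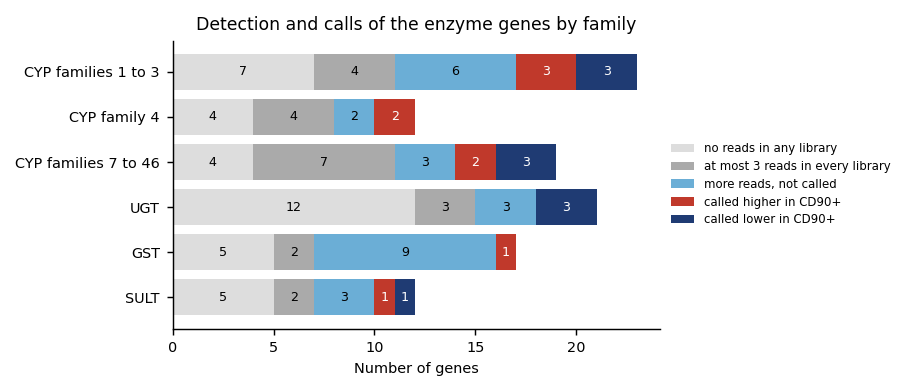
Number of genes (horizontal axis) in each enzyme family that had no reads, at most 3 reads in every library, more reads without a call, or a call higher or lower in HuCCT1/CD90+ (limma, adjusted p at most 0.05 and fold at least 1.5). CYP genes are drawn as 3 bars by family number. No reads were found for 12 of 21 UGT genes, 9 of 17 GST genes had more reads without a call, and CYP genes hold calls in both directions.

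Summed over a family, CYP amplicons took 338, 374 and 369 RPM in HuCCT1/CD90− and 202, 253 and 243 RPM in HuCCT1/CD90+, and UGT amplicons took 33.9, 40.3 and 61.4 RPM against 5.47, 6.52 and 6.73 RPM. SULT sums went from 15.3, 19.0 and 16.1 to 7.72, 11.9 and 13.2 RPM. None of these sums overlapped between the lines, whereas the GST sums did, at 914, 1213 and 875 RPM in HuCCT1/CD90− and 917, 1186 and 1051 RPM in HuCCT1/CD90+. The most-read CYP gene was CYP2S1, with means of 223 against 139.5 RPM. Without CD90 the mean CYP sum was 360 RPM, so CYP2S1 gave most of it. Likewise UGT1A10 gave 35.1 of 45.2 RPM for UGT genes and SULT1A4 15.1 of 16.8 RPM for SULT genes. The CYP, UGT and SULT sums thus in large part restate 1 gene each that was called lower. Most GST reads came from 1 gene, GSTP1, with 60.6% to 69.3% of them per library. Of all genes that averaged 1 RPM or more, 52.6% did not overlap between the lines either, so little is read from sums lying apart. These sums are read shares, since amplicons differ in how well they amplify, and no test was made on them.

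**Figure D2:**
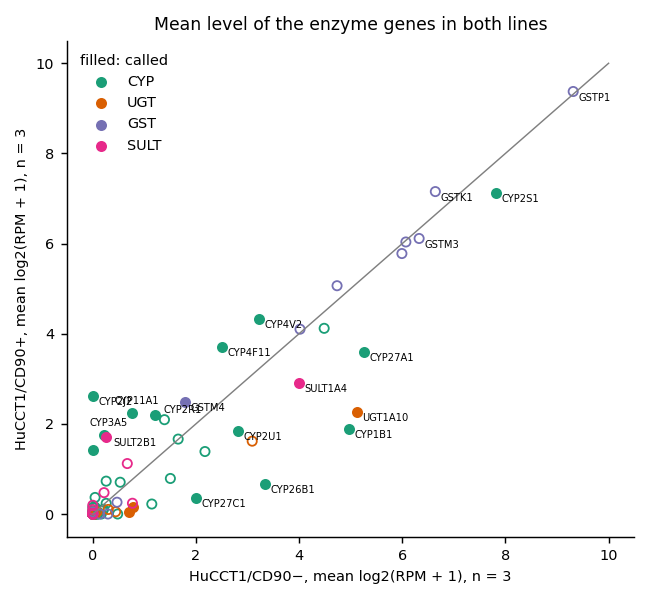
Mean log2(RPM + 1) of each of the 104 genes over the 3 HuCCT1/CD90− libraries (horizontal axis) and the 3 HuCCT1/CD90+ libraries (vertical axis), coloured by class, with called genes filled and equality as a line. GSTP1 and the other well-read GST genes lie along the line, while UGT1A10, CYP1B1, CYP26B1 and CYP27A1 lie far below it and CYP2J2 at 0 on the horizontal axis.

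Among CYP families 1 to 3, whose members handle most drugs and pollutants, CYP1B1, CYP2S1 and CYP2U1 fell and CYP2J2, CYP2R1 and CYP3A5 rose, 6 of 23 genes. CYP1B1, which activates polycyclic hydrocarbons and hydroxylates oestradiol, had 18.2, 41.3 and 36.2 RPM in HuCCT1/CD90− and 1.82, 4.54 and 2.17 RPM in HuCCT1/CD90+. The lines did not overlap although HuCCT1/CD90− replicate 1 read well under the other libraries of its line. The means were 31.9 ± 12.1 and 2.84 ± 1.48 RPM (SD, n = 3 each), 11.2-fold lower in HuCCT1/CD90+, and limma gave -3.08 as the log2 fold change (standard error, SE, 0.44, adjusted p = 0.015). Without HuCCT1/CD90− replicate 2 or 3 or HuCCT1/CD90+ replicate 1 or 3 its adjusted p was 0.052, 0.060, 0.056 and 0.064. CYP1B1 is annotated on the minus strand of chromosome 2 at bases 38066973 to 38109902 (GRCh38), where GENCODE 29 places exons of CYP1B1-AS1 and RMDN2 on the opposite strand and of RMDN2-AS1 on the same strand over its exons, whose reads could not be told apart. CYP1A1, the classic gene induced through the aryl hydrocarbon receptor, had 0.095, 0.642 and 0.679 RPM in HuCCT1/CD90− and 0.107, 0.699 and 1.30 RPM in HuCCT1/CD90+, a log2 fold change of 0.17 with a 95% interval from -0.75 to 1.10. CYP1A2 had no reads.

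CYP2S1, a CYP of epithelia outside the liver, was read at 220, 225 and 225 RPM in HuCCT1/CD90− and 114, 149 and 155 RPM in HuCCT1/CD90+. Every HuCCT1/CD90+ library was below every HuCCT1/CD90− library. Its log2 fold change was -0.69 (SE 0.13, adjusted p = 0.031, limma), or 1.601-fold lower in mean RPM. This call was lost with the replicate block (adjusted p = 0.081) and on leaving out any single library, where the log2 fold change stayed from -0.77 to -0.55. Without HuCCT1/CD90+ replicate 1 it was the fold and not the p that missed its limit (adjusted p = 0.0039).

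CYP3A5, a drug-metabolising CYP that is expressed in many epithelia, had 2, 3 and 0 reads (0.190, 0.321 and 0 RPM) in HuCCT1/CD90− and 1.93, 1.86 and 3.47 RPM in HuCCT1/CD90+. From summed reads this was a 14.7-fold difference, with an exact 95% interval from 5.99 to 46.8 for counting error only. The log2 fold change was 1.53 (adjusted p = 0.017, limma). Its adjusted p was 0.096 with the replicate block, and 0.057 and 0.060 without HuCCT1/CD90− replicate 1 or 3. Its 50 neighbours on chromosome 7 had a median change of 0.67 (log2), and with this taken off CYP3A5 was at 1.10 (adjusted p = 0.033). The liver forms CYP3A4, CYP3A7 and CYP3A43 had at most 3 reads in every library, as had 2 of the 4 CYP2C genes. Amplicons of close relatives such as these could share reads.

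Among the genes read but not called, CYP2D6 had 1.71, 1.82 and 1.36 RPM in HuCCT1/CD90− and 1.72, 5.24 and 3.58 RPM in HuCCT1/CD90+, and CYP2E1 had a log2 fold change of 0.01 with an interval from -0.43 to 0.44. CYP2D6, like CYP2E1, overlapped between the lines. For CYP2D6 the log2 fold change was 0.70 (adjusted p = 0.26, limma), and on the recovered reads it passed by edgeR with a filter (adjusted p = 0.027) but not by DESeq2 (0.060).

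Of 4 called genes grouped here for their action on fatty acids, CYP2J2, CYP4F11 and CYP4V2 rose and CYP2U1 fell. The group was not a fixed list, so no balance of directions is read from it. CYP2J2, which turns arachidonic acid into epoxyeicosatrienoic acids, had no reads in any HuCCT1/CD90− library and 5.58, 4.89 and 5.10 RPM in HuCCT1/CD90+. Against a floor of 3 reads per library it was at least 17.4-fold higher, with a fitted log2 fold change of 2.63 (SE 0.044, adjusted p = 0.00019, limma), and it passed with the replicate block (adjusted p = 0.012) and with any 1 library left out. It lies on chromosome 1 from 59893308 to 59926790, where its 50 nearest genes had a median of -0.27.

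CYP4F11, a fatty acid and vitamin K omega-hydroxylase, rose from 5.31, 4.49 and 4.27 to 9.22, 14.6 and 12.7 RPM, a log2 fold change of 1.19 (SE 0.19, adjusted p = 0.019, limma). CYP4V2, the fatty acid hydroxylase altered in Bietti crystalline dystrophy, rose from 7.49, 7.49 and 10.2 to 20.05, 18.3 and 19.0 RPM, a log2 fold change of 1.11 (SE 0.13, adjusted p = 0.0090). In both genes every HuCCT1/CD90+ library exceeded every HuCCT1/CD90− library. With the replicate block CYP4F11 had an adjusted p of 0.096 and CYP4V2 of 0.0504, and CYP4F11 also missed without HuCCT1/CD90− replicate 2 (0.069) or 3 (0.071) or HuCCT1/CD90+ replicate 3 (0.076). The median change of the 50 nearest genes of CYP4V2 on chromosome 4 was 0.38 (log2), and with it taken off the gene kept 0.76 (adjusted p = 0.027). The other 10 genes of CYP family 4 were not called, and 8 of them had no library with more than 3 reads. Exons of KLKB1 overlap those of CYP4V2 on the same strand, so that their reads could not be told apart.

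CYP2U1, which hydroxylates long-chain fatty acids, fell from 4.64, 7.49 and 6.21 to 2.57, 2.56 and 2.60 RPM. The HuCCT1/CD90+ libraries lay close together below all HuCCT1/CD90− libraries, at -0.97 on the log2 scale (SE 0.16, adjusted p = 0.023, limma). The adjusted p was 0.076 with the replicate block and 0.079 to 0.083 without HuCCT1/CD90− replicate 3 or any 1 HuCCT1/CD90+ library.

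Of the 19 CYP genes from family 7 upwards, which mostly serve sterols, steroids, vitamin D and retinoids, 3 fell and 2 rose. CYP27A1, the mitochondrial sterol hydroxylase of bile acid synthesis, had 35.8, 40.6 and 35.7 RPM in HuCCT1/CD90− and 10.3, 15.4 and 8.46 RPM in HuCCT1/CD90+. That is 3.28-fold lower in the mean (37.4 ± 2.77 against 11.4 ± 3.58 RPM, SD, n = 3 each), or -1.67 on the log2 scale (SE 0.23, adjusted p = 0.013, limma). The adjusted p was 0.041 with the replicate block, and 0.054, 0.053 and 0.055 without HuCCT1/CD90− replicate 2, HuCCT1/CD90− replicate 3 or HuCCT1/CD90+ replicate 1. The other bile acid CYP genes were hardly read: CYP7A1 had no reads, and CYP7B1 and CYP8B1 at most 3 reads in every library. CYP39A1, an oxysterol hydroxylase, was at 0.758, 1.61 and 1.36 against 0.429, 0 and 0.109 RPM. Its adjusted p was 0.054 by limma and 0.19 with the replicate block, but 0.0014 by edgeR without a filter and 0.019 by DESeq2. The filter of edgeR left it out.

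In retinoid metabolism, CYP26B1 and CYP27C1 both fell. CYP26B1, which breaks down retinoic acid, was at 8.91, 9.10 and 9.41 RPM in HuCCT1/CD90− and 0.322, 0.582 and 0.868 RPM in HuCCT1/CD90+. CYP27C1, which desaturates retinoids, was at 3.51, 2.35 and 3.20 against 0.429, 0.116 and 0.326 RPM. The lines were far apart for both genes. From summed reads CYP26B1 was 15.5-fold (exact 95% interval 9.37 to 27.5) and CYP27C1 10.3-fold lower (5.03 to 24.6), counting error only, and the log2 fold changes were -2.69 (SE 0.14, adjusted p = 0.0012) and -1.64 (SE 0.16, adjusted p = 0.0055, limma). Both also passed with the replicate block (adjusted p = 0.019 and 0.011) and with any 1 library left out. CYP26A1 and CYP26C1 had at most 3 reads in every library.

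CYP2R1, CYP24A1 and CYP27B1 are given together for their role in vitamin D metabolism and not from a fixed list. CYP2R1 and CYP24A1 rose. CYP27A1, which fell, is given above with bile acid synthesis and not counted here. CYP2R1, which makes the circulating hydroxylated form, rose from 1.14, 1.39 and 1.36 to 4.29, 3.38 and 3.15 RPM (log2 fold change 1.00, SE 0.11, adjusted p = 0.0081, limma). CYP24A1, which inactivates vitamin D hormone, had no reads in HuCCT1/CD90− and 1.501, 1.75 and 1.74 RPM in HuCCT1/CD90+, at least 5.56-fold higher (adjusted p = 0.00043). It lies under the 1 RPM limit for named genes and was singled out after its values were seen. CYP27B1, the activating hydroxylase, had 2.37, 4.39 and 4.07 against 1.82, 1.75 and 1.30 RPM (log2 fold change -0.79, adjusted p = 0.081 by limma, but 0.011 by edgeR with a filter and 0.037 by DESeq2). With the replicate block CYP2R1 had an adjusted p of 0.065. Its 50 nearest genes on chromosome 11 had a median of 0.42 (log2), and with this taken off CYP2R1 kept 0.68 (adjusted p = 0.020). VDR, the receptor, was at 49.4, 100 and 68.2 against 57.2, 67.8 and 53.7 RPM and overlapped between the lines.

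CYP11A1, the side-chain cleavage enzyme that opens steroid synthesis, rose from 1.04, 0.749 and 0.388 to 5.58, 2.56 and 3.58 RPM. All HuCCT1/CD90+ libraries were higher, with replicate 1 the highest, and the log2 fold change was 1.48 (SE 0.29, adjusted p = 0.033, limma). It had an adjusted p of 0.064 with the replicate block and 0.062 to 0.105 on leaving out any library other than HuCCT1/CD90+ replicate 2. The other steroid genes of this group, CYP11B1, CYP11B2, CYP17A1, CYP19A1 and CYP21A2, had at most 3 reads in every library. CYP20A1, a CYP without an assigned substrate, was not called, at 22.7, 19.6 and 22.0 against 15.9, 20.4 and 13.6 RPM (adjusted p = 0.23).

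**Figure D3:**
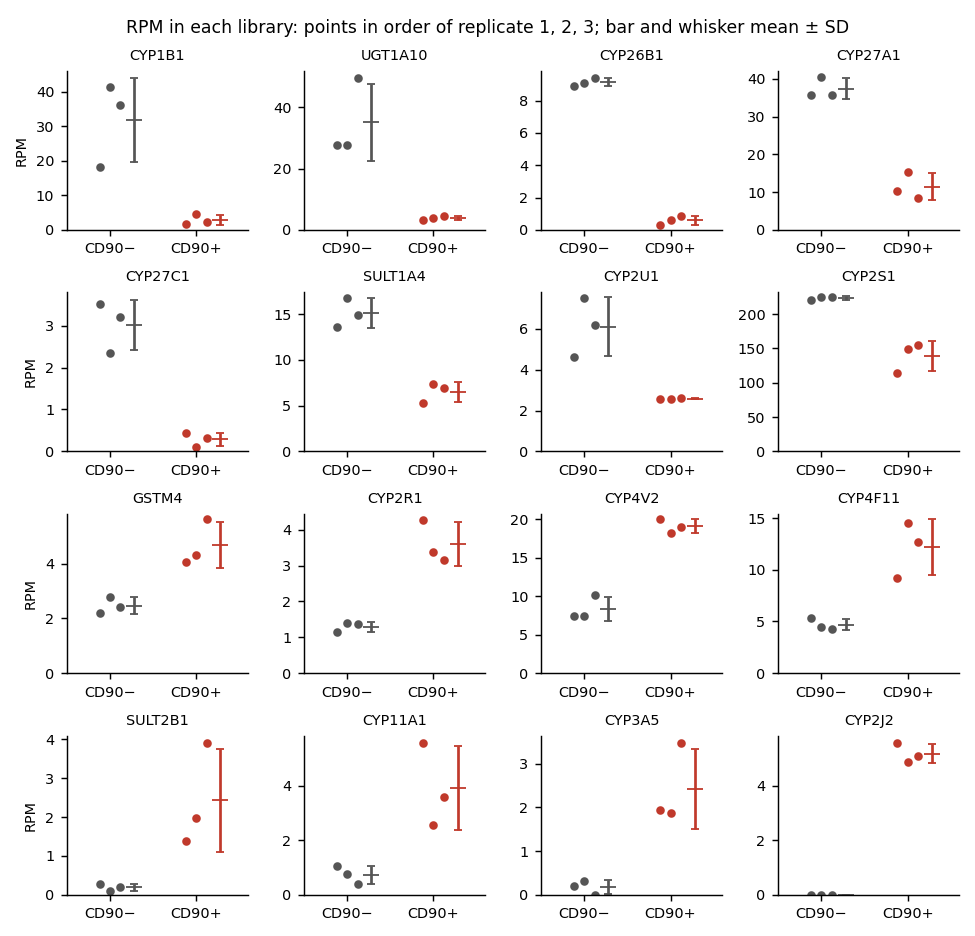
RPM (vertical axes, each from 0) in the 3 HuCCT1/CD90− and 3 HuCCT1/CD90+ libraries for the 16 called enzyme genes that averaged 1 RPM or more, as points in the order of replicates 1 to 3, with the mean and SD beside them. In no panel do the lines overlap, as in 52.6% of all genes that averaged 1 RPM or more, but these genes were called on the same libraries, so nothing is read from that share.

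In the UGT family, UGT1A10, a glucuronosyltransferase known from the gut and other tissues outside the liver, gave most of the reads. It had 27.8, 27.8 and 49.7 RPM in HuCCT1/CD90− and 3.22, 3.84 and 4.45 RPM in HuCCT1/CD90+. Each HuCCT1/CD90+ library was far below each HuCCT1/CD90− library, whose replicate 3 stood above the others. The means were 35.1 ± 12.6 and 3.84 ± 0.617 RPM (SD, n = 3 each), 9.15-fold lower, and the log2 fold change by limma was -2.85 (SE 0.28, adjusted p = 0.0055). It passed with the replicate block (adjusted p = 0.026) and with any 1 library left out (highest adjusted p 0.029).

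The UGT1A genes are alternative first exons of 1 locus on chromosome 2, with UGT1A10 annotated from 233636454 to 233773305, and they share their last exons. Since the position of each amplicon is not known, their reads may be shared and their calls are not independent. UGT1A9 had 0.663, 0.535 and 0.970 against 0.107, 0.116 and 0.109 RPM (adjusted p = 0.021), and UGT1A6 had 0.379, 0.963 and 0.582 against 0, 0 and 0.109 RPM (adjusted p = 0.0496). Both lie under the 1 RPM limit for named genes and were singled out after their values were seen, and neither passed with the replicate block (adjusted p = 0.074 and 0.12). Their calls were each lost on leaving out 5 of the 6 libraries in turn, the exception being HuCCT1/CD90− replicate 2 for UGT1A9 (adjusted p up to 0.080) and HuCCT1/CD90− replicate 1 for UGT1A6 (up to 0.146). UGT1A1 and UGT1A4 were listed at 0. UGT8, which makes galactosylceramide and not glucuronides, was at 4.08, 10.4 and 9.70 against 2.04, 2.21 and 1.95 RPM (log2 fold change -1.47, adjusted p = 0.057), and its low HuCCT1/CD90− library was replicate 1. On the recovered reads, edgeR with a filter (adjusted p = 0.00011) and DESeq2 (adjusted p = 8.6e-06) did pass it.

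Of the 10 lower genes, 7 lay on chromosome 2, although not side by side: CYP1B1, CYP26B1, CYP27C1, CYP27A1 and the 3 UGT1A genes that share a locus. That chromosome holds 17 of the enzyme genes and none of the higher ones, and 9.07% of its 1180 genes with a known place were called lower, against 7.49% of all genes. The 3 UGT1A genes may share reads, and no test was made of the count. The 50 nearest genes of these 7 had median log2 fold changes from -0.04 to 0.11. With that median taken off each gene, 9 enzyme genes were higher and 10 lower, with UGT8 (adjusted p = 0.047) passing and UGT1A6 (adjusted p = 0.055) missing.

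Among the GST genes 16 of 17 were not called. GSTP1, the pi-class enzyme prominent in bile duct cells, had 554, 840 and 551 RPM in HuCCT1/CD90− and 568, 761 and 672 RPM in HuCCT1/CD90+. Its libraries overlapped, and the log2 fold change of 0.06 had a 95% interval from -0.54 to 0.66. The sign turned under 5 settings, with values down to -0.17 when the median of its neighbours was taken off. GSTO1, a thioltransferase, had 66.7, 74.5 and 58.3 against 55.5, 79.1 and 61.3 RPM, with an interval from -0.49 to 0.42. Its neighbour GSTO2, which reduces dehydroascorbate, had 62.4, 64.3 and 61.4 against 45.99, 64.6 and 52.6 RPM, with an interval from -0.57 to 0.14.

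Further GST genes that were read without a call were GSTM3, GSTZ1, GSTT2 and GSTK1. GSTM3, a mu-class enzyme, had 80.5, 89.3 and 69.3 against 70.4, 63.3 and 71.1 RPM (log2 fold change -0.21, interval -0.51 to 0.08). GSTZ1, the isomerase of tyrosine breakdown, had an interval from -0.14 to 0.80 and GSTT2, a theta-class enzyme with a close copy, from -0.15 to 0.32. None of these 3 separated the lines, and with the median of the neighbours taken off, GSTM3 was at 0.01 and GSTT2 at -0.10. GSTK1, found in mitochondria and peroxisomes, was at 106, 95.4 and 95.2 against 123, 157 and 146 RPM without overlap (log2 fold change 0.51, adjusted p = 0.043, limma), which missed the fold limit. Its 50 nearest genes on chromosome 7 had a median of 0.50, and with it taken off GSTK1 was at 0.02.

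GSTM4, the 1 GST gene that was called, rose from 2.18, 2.78 and 2.42 to 4.07, 4.31 and 5.64 RPM (log2 fold change 0.71, SE 0.13, adjusted p = 0.030, limma). Its adjusted p was 0.085 with the replicate block and 0.060 to 0.09995 on leaving out any library other than HuCCT1/CD90+ replicate 3. Exons of GSTM2 overlap those of GSTM4 on the same strand, and the mu-class genes are close copies, so its reads may be shared. GSTM4 and GSTM3 lie in 1 cluster on chromosome 1, and the log2 fold change was 0.71 for the first and -0.21 for the second, a difference that was not tested. Of the 5 alpha-class genes, common in hepatocytes, 4 had no reads.

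The 2 called sulfotransferase genes moved in opposite directions. SULT1A4, which sulfates phenols and monoamines, fell from 13.6, 16.8 and 14.9 to 5.25, 7.34 and 6.95 RPM. Every HuCCT1/CD90+ library was lower, at -1.11 on the log2 scale (SE 0.15, adjusted p = 0.012, limma), and only without HuCCT1/CD90− replicate 3 did it miss the limit among the 6 libraries left out in turn (adjusted p = 0.051). SULT1A4 has a near-identical copy, and a read-through transcript shares its exons, so the value may hold reads of several genes.

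SULT2B1, which sulfates cholesterol and hydroxysteroids in epithelia, had 3, 1 and 2 reads (0.284, 0.107 and 0.194 RPM) in HuCCT1/CD90− and 1.39, 1.98 and 3.91 RPM in HuCCT1/CD90+. Summed reads were 12.2-fold higher (exact 95% interval 5.34 to 34.6, counting error only), or 1.46 on the log2 scale of the fit (SE 0.30, adjusted p = 0.037, limma). The adjusted p was 0.105 with the replicate block and 0.097 to 0.114 without any 1 HuCCT1/CD90− library or without HuCCT1/CD90+ replicate 2. The other 10 SULT genes were not called, and 5 of the 12 had no reads.

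**Figure D4:**
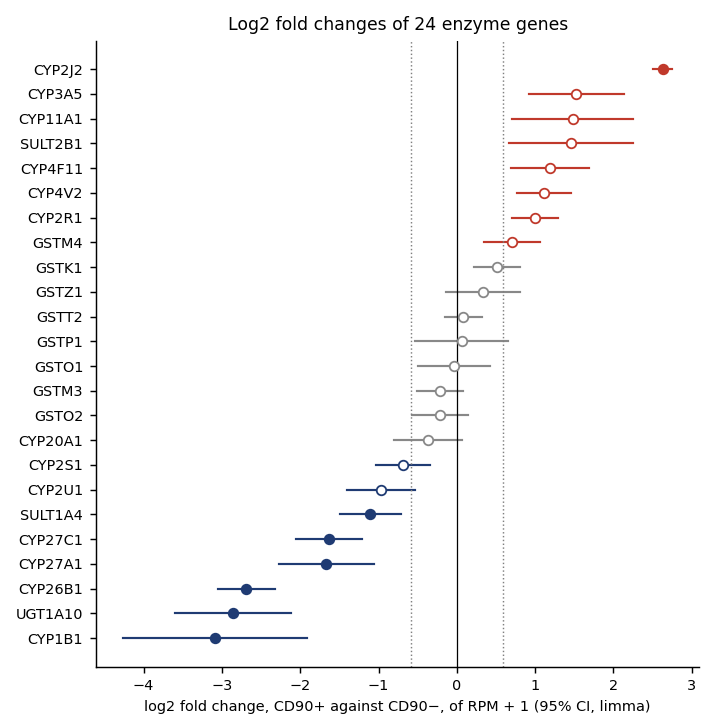
Log2 fold change of RPM + 1 between HuCCT1/CD90+ and HuCCT1/CD90− with its 95% confidence interval (limma) for 24 enzyme genes, in red where called higher, blue where called lower and grey where not called, with filled points for calls that also had an adjusted p of at most 0.05 with the replicate block and dotted lines at a fold of 1.5. CYP2J2 and 6 of the 8 lower genes are filled, and the 7 GST genes that were not called lie between -0.21 and 0.51.

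Promoter windows from RefSeq (GRCh38.p14, 250 bases before each listed start) matched 79 of the 104 genes, with 97 windows. CYP1B1 and UGT1A10 are not among them. The windows were searched on both strands for GCGTG, the core bound by the aryl hydrocarbon receptor with ARNT, TGACNNNGC, the core of the antioxidant response element of NRF2, and AGGTCA, a site core of nuclear receptors. GCGTG was found in 23.7% of the windows of enzyme genes and 32.2% of all 35116 windows, TGACNNNGC in 13.4% and 10.9%, and AGGTCA in 22.7% and 12.1%. Such matches describe letters and not binding. Shown, 5′ to 3′ on the gene's strand with matches in capitals, are the windows of the 2 largest falls and 2 largest rises among called genes whose window held at least 200 bases ahead of the gene's first base in GENCODE 29, so that members that fell and rose can be set side by side. Those of SULT1A4, CYP3A5 and CYP2J2 are cut where the gene begins, while that of CYP27C1 is a whole window that ends ahead of the gene. They are those of CYP27C1 (chr2:127220300-127220549, minus strand), SULT1A4 (chr16:29459663-29459888, plus strand), CYP3A5 (chr7:99680027-99680246, minus strand) and CYP2J2 (chr1:59926791-59927023, minus strand).
CYP27C1: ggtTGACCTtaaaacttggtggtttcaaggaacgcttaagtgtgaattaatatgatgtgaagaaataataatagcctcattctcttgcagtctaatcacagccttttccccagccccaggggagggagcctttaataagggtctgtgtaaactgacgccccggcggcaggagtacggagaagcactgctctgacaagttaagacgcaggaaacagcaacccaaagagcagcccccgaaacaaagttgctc
SULT1A4: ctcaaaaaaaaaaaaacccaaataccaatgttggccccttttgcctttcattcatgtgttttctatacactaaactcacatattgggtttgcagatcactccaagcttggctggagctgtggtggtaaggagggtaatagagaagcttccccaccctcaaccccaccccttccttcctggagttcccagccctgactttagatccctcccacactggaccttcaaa
CYP3A5: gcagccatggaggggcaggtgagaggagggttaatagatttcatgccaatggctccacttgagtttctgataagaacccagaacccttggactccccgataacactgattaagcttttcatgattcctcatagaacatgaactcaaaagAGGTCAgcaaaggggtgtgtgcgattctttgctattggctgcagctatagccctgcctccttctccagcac
CYP2J2: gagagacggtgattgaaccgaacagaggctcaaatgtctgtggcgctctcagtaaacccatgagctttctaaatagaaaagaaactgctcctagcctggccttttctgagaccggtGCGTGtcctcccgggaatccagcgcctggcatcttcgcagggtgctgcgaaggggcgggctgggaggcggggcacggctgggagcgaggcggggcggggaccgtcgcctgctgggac
The capitals mark AGGTCA read from the opposite strand in CYP27C1 (the first of its 2 listed windows) from base 247 to 242 counted back from the end of the printed stretch, AGGTCA in CYP3A5 from base 71 to 66, and GCGTG in CYP2J2 from base 117 to 113, while the stretch of SULT1A4 held none of the 3 motifs.

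The genes that regulate and serve these enzymes were taken from 5 lists with 68 genes, of which 7 were higher and 10 lower in HuCCT1/CD90+ (4 and 6 with the replicate block). That is 25% of these genes, against 15.1% of all genes, and with the replicate block 10.1% of all genes were called. The higher count was 3 without HuCCT1/CD90+ replicate 1 and 4 without HuCCT1/CD90− replicate 1 or 2 or HuCCT1/CD90+ replicate 2 or 3, and 4 with the median of the neighbours taken off. Among 16 regulators, 3 rose and 1 fell. PPARA, the fatty acid receptor that drives some CYP family 4 genes, rose from 11.8, 13.1 and 11.2 to 24.7, 22.6 and 29.9 RPM (log2 fold change 1.03, adjusted p = 0.0095, limma, or 0.071 with the block). Whether it bears on CYP4F11 or CYP4V2 was not tested. TIPARP, a feedback inhibitor of the aryl hydrocarbon receptor, rose from 8.91, 11.8 and 16.4 to 29.2, 26.7 and 36.6 RPM (log2 fold change 1.28, adjusted p = 0.035, with the block 0.051, and 0.068 to 0.111 on leaving out any library other than HuCCT1/CD90− replicate 3). Its 50 nearest genes had a median of 0.60 (log2), and with it taken off TIPARP was at 0.70 (adjusted p = 0.16).

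AHRR, another inhibitor of that receptor, went the other way, from 10.1, 18.3 and 18.3 to 0.750, 2.68 and 1.84 RPM (log2 fold change -2.61, adjusted p = 0.017, or 0.018 with the block), and it missed without HuCCT1/CD90− replicate 2 or 3 or HuCCT1/CD90+ replicate 3 (adjusted p up to 0.065). HNF4A, the liver factor that drives many CYP genes, had at most 2 reads in each HuCCT1/CD90− library and 5.25, 8.85 and 12.2 RPM in HuCCT1/CD90+ (adjusted p = 0.0057). AHRR and HNF4A lie under the 10 RPM limit for partner genes and were singled out after their values were seen. The receptor AHR itself was at 43.3, 80.9 and 75.6 against 67.3, 56.9 and 45.2 RPM with overlap, and its partner ARNT at 58.1, 110 and 84.3 against 42.2, 43.8 and 53.2 RPM without overlap (log2 fold change -0.80, adjusted p = 0.12 by limma, but 0.0013 by edgeR with a filter and 0.00026 by DESeq2). The 50 nearest genes of ARNT had a median of -0.54. NR1I2 and NR1I3, the drug-sensing receptors PXR and CAR, had at most 1 read in any library. NFE2L2, the gene of NRF2, was at -0.41 on the log2 scale (adjusted p = 0.12).

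None of the 7 electron donors was called by limma. FDX1, the ferredoxin of mitochondrial CYP enzymes, was at 39.9, 36.2 and 49.3 against 93.9, 62.1 and 71.6 RPM without overlap (log2 fold change 0.84, adjusted p = 0.059). POR was at 41.7, 53.9 and 44.5 against 47.1, 62.6 and 55.6 RPM. With the p unadjusted and the same fold, 1 of the 7 passed, FDX1, and on the recovered reads edgeR with a filter (adjusted p = 0.00055) and DESeq2 (adjusted p = 3.0e-05) passed it as well.

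Of 22 other oxidising, reducing and hydrolysing enzymes, 6 fell and 1 rose. NQO1, a quinone reductase induced through NRF2, fell from 433, 385 and 431 to 146, 179 and 177 RPM (log2 fold change -1.32, SE 0.10, adjusted p = 0.0032, limma, or 0.040 with the block). EPHX1, the microsomal epoxide hydrolase, fell from 177, 225 and 192 to 70.8, 71.3 and 73.03 RPM (log2 fold change -1.45, adjusted p = 0.0021, or 0.028 with the block). Both separated the lines in every library. AKR1C3, an aldo-keto reductase of steroids and prostaglandins, fell from 18.9, 18.9 and 19.0 to 1.93, 1.16 and 1.74 RPM (log2 fold change -2.95, adjusted p = 0.00078), and its close copies AKR1C1 and AKR1C2, which may share its reads, were called lower as well, but not with the block (adjusted p = 0.055 and 0.070). AKR1C2 also missed on leaving out any HuCCT1/CD90− library or HuCCT1/CD90+ replicate 2 (adjusted p up to 0.063). The median of the neighbours was -0.34 for NQO1, -0.41 for EPHX1 and -0.27 for AKR1C3, and each call held with it taken off.

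Of 11 genes that supply co-substrates, 1 rose and 2 fell. UGP2, which makes UDP-glucose, rose from 29.1, 39.6 and 38.1 to 54.4, 57.4 and 51.0 RPM (log2 fold change 0.60, adjusted p = 0.048, with the block 0.11), and it missed a limit on leaving out any single library. GCLM, the modifier subunit of the first enzyme of glutathione synthesis, fell from 71.2, 69.8 and 68.3 to 47.8, 36.4 and 36.6 RPM (log2 fold change -0.79, adjusted p = 0.018, or 0.058 with the block and 0.061 to 0.066 on leaving out any library other than HuCCT1/CD90+ replicate 1). With the median of its neighbours taken off, GCLM was at -0.52 (adjusted p = 0.060).

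Of 12 other conjugating and mercapturate enzymes, 2 rose and 1 fell. NAT1, which acetylates arylamines, rose from 6.63, 3.75 and 6.60 to 45.9, 32.6 and 41.7 RPM, 7.08-fold in the mean (log2 fold change 2.64, SE 0.25, adjusted p = 0.0054, limma, or 0.017 with the block). NNMT, which methylates nicotinamide, fell from 64.3, 102 and 107 to 9.86, 11.9 and 12.2 RPM, 8.05-fold (log2 fold change -2.87, adjusted p = 0.0034, or 0.021 with the block). The membrane glutathione transferase MGST1 had 210, 271 and 312 against 324, 319 and 331 RPM and was not called (adjusted p = 0.28).

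**Figure D5:**
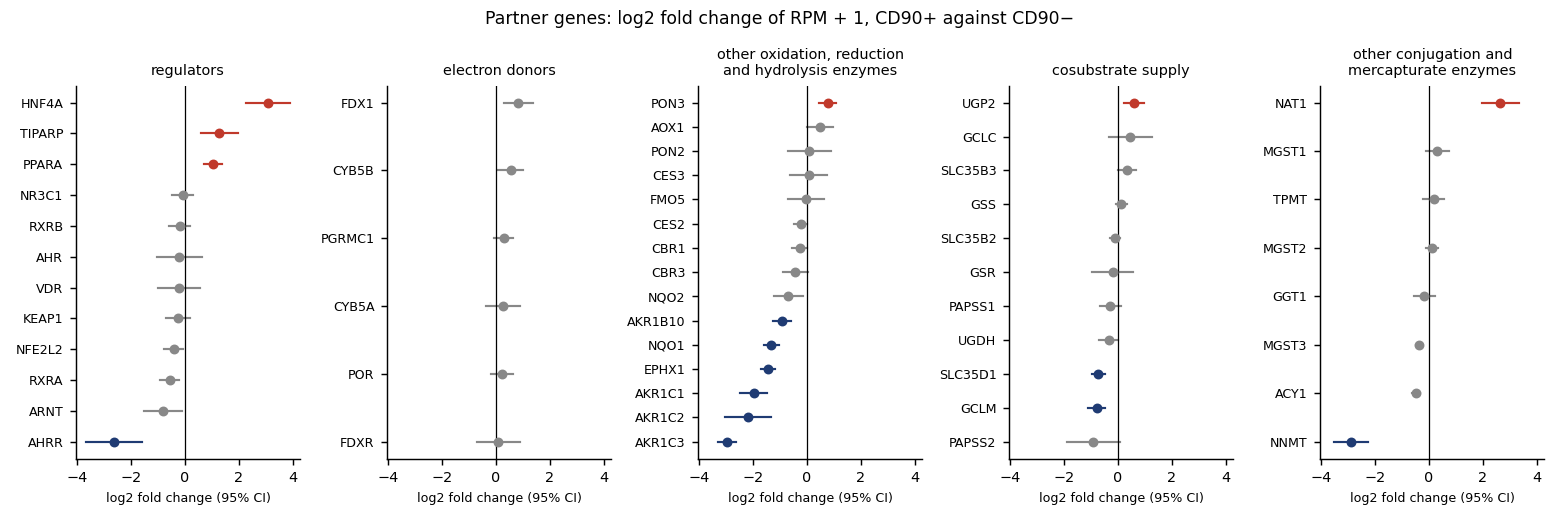
Log2 fold change of RPM + 1 between HuCCT1/CD90+ and HuCCT1/CD90− with its 95% confidence interval (limma) for partner genes that averaged 1 RPM or more, in 5 lists, with called genes in red (higher) or blue (lower). HNF4A and NAT1 reach furthest to the right, and AHRR, NNMT and AKR1C3 furthest to the left, while the electron donors reach from 0.09 to 0.84.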

How the data were processed

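RNA of 6 libraries was amplified by the authors with the Ion AmpliSeq Transcriptome panel, 1 amplicon per gene, read on the Ion GeneStudio S5 Prime, and counted by them with the ampliSeqRNA plugin. The submitters' processing notes name hg19 and the Transcriptome Analysis Console. The authors deposited RPM values (reads per 1000000 reads on genes) for 20811 genes, with no amplicon positions used here. Values are whole multiples of 1 read in each library (100% within a tolerance of 0.1 read), which gave read totals and a floor of 3 reads (0.284 to 0.349 RPM). The panel uses PCR and has no molecular identifiers, so intervals and floors cover counting error only. No pair of libraries agreed within sampling noise in a chi-square test.

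Differences were tested on log2(RPM + 1), which understates changes of low genes, with limma 3.58.1 (R 4.3.3) over all 20811 genes without a filter, with Benjamini-Hochberg adjustment, after the limma method and fold of 1.5 that the study's methods name. Genes named with values are enzyme genes called at an average of 1 RPM or more, any enzyme gene averaging 10 RPM or more, and called partner genes averaging 10 RPM or more, plus those said to be singled out. Other genes are named beside them for their role, with their values already seen. Deviations of same-numbered libraries from their line's mean correlated with r = 0.21, 0.32 and 0.18, and differently numbered ones with r from -0.29 to 0.07. On the strength of this check only, libraries of the same number may be pairs. The main fit behind the calls did not pair them, and an alternative fit held the number as a replicate block. Others were offsets of 0.1 and 5 RPM, filters at 1 and 10 RPM, quantile normalization, median centring, trend and robust eBayes, each library left out, other thresholds, edgeR 4.0.16 and DESeq2 1.42.0 on the recovered reads, and subtraction of the median change of the 50 nearest genes (GENCODE 29). The fits were tested on simulated data. 1 partner gene is counted but not reported here. Positions are those of GRCh38. The enzyme genes, lists and tests were chosen with earlier results of these data known.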

Additional observations from a re-analysis of the deposited data

How the results depend on the processing

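All 16 called enzyme genes that averaged 1 RPM or more kept their direction in every alternative that gave them a value, and all 16 stayed called with an offset of 0.1 RPM, a filter at 1 RPM, quantile normalization, median centring, trend and robust eBayes, edgeR with and without a filter, DESeq2 and subtraction of the neighbours. With an offset of 5 RPM 11 of the 16 stayed called, and with the replicate block 7. The counts over all 104 genes that moved by more than 1.5 times were 4 higher genes with an offset of 5 RPM, 1 higher and 5 lower with a filter at 10 RPM, which tests only 14 of them, 2 higher and 6 lower with the replicate block, and 6 lower with a minimum fold of 2. Of the partner genes, 4 were higher and 6 lower with the replicate block, 4 higher with neighbours subtracted and 4 higher with a minimum fold of 2. Leaving out 1 library gave 4 to 8 higher and 3 to 12 lower enzyme genes, and 3 to 6 higher and 7 to 10 lower partner genes. Such fits have fewer samples, and beyond that the cause was not tested. At an unadjusted p of at most 0.05, the rule of the study's methods, 9 enzyme genes were higher and 14 lower, against 10.1% and 9.98% of all genes. The signs that turned belonged to genes that were not called: GSTP1 with quantile normalization (-0.0092), with neighbours subtracted (-0.17) and over the libraries left out (-0.042 to 0.26), GSTO1 over the libraries left out (-0.18 to 0.072), GSTM3 (0.013) and GSTT2 (-0.099) with neighbours subtracted. Without a filter on low counts the prior degrees of freedom of edgeR were infinite, so no variation of the dispersion among genes entered its p-values. At 3 reads the floor hides differences among the 59 enzyme genes that had at most 3 reads in every library.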
